A study of Mus musculus with 12 samples.

Results

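Acetylation of lysine 27 on histone H3 (H3K27ac) was compared between 4T1 cells given etomoxir (50 µM) together with SB204990 (50 µM) and 4T1 cells given vehicle, in both cases for 48 h. The comparison used 4 of the 12 libraries of the series, chosen by the treatment in their labels. The other treatments were acetate (5 mM), etomoxir alone, etomoxir with acetate, and both inhibitors with acetate, and SB204990 alone was not analysed here. 4T1 is an established line of mouse mammary carcinoma cells, labelled wild type and kept in DMEM with fetal bovine serum. Each treatment had 2 libraries, called set 1 and set 2 after the shared suffix of their names. The meaning of the suffix is not given in the labels, nor whether the libraries came from separate cultures, so p-values measure only the spread between these libraries, which may be technical.

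H3K27ac marks active promoters and enhancers and is written by acetyltransferases that draw on acetyl-CoA. Etomoxir blocks carnitine palmitoyltransferase 1, the step that lets long-chain fatty acids enter mitochondria for oxidation, and SB204990 blocks ATP citrate lyase, which releases acetyl-CoA from citrate in the cytosol. Genes for handling fatty acids are classic targets of the PPAR nuclear receptors, which pair with RXR on a direct repeat of the half-site AGGTCA with a spacer of a single base (a DR1 element). The comparison asks where the mark moved when both routes to acetyl-CoA were blocked.

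H3K27ac was read by chromatin immunoprecipitation and sequencing, with 7.5% human chromatin added as a spike-in, in 126464 mouse intervals of the genome (build mm10) with a median length of 715 bp. The deposited value of an interval is its read count times a spike-in factor of the library. The highest factor was 1 in each set, in etomoxir with acetate for set 1 and in both inhibitors for set 2, so deposited values of the sets may not be on a single scale. It was 0.467 and 0.792 for vehicle and 0.398 and 1 for both inhibitors. Every result is given as deposited and after each library was divided by its own total, which is called the share of the library. On the deposited scale the signal summed over all intervals, in scaled reads, was 6.82e+06 in vehicle set 1 and 7.68e+06 in vehicle set 2, and it was 5.35e+06 and 7.18e+06 in the corresponding libraries with both inhibitors. The ratio was 0.784 in set 1 and 0.935 in set 2, and an exact two-sided permutation test gave p = 0.667 where 0.333 is the smallest that 2 against 2 libraries allow. In bulk chromatin, less mark per cell and fewer cells carrying it cannot be told apart. The reads in intervals numbered 14601286 and 9689378 for vehicle and 13441958 and 7179165 for both inhibitors, so the treated library of set 2 was the shallowest of these 4 and its counting error the largest.

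The treated library of set 2 also differed in shape from the others. The weakest quartile of the intervals held 3.08% of its signal, against 0.99% to 1.48% in the other 11 libraries, and its mean correlation with them was 0.915 where theirs lay between 0.949 and 0.958. In set 1 the log2 ratio of treated to vehicle signal was nearly flat over 10 equal bins of intervals ordered by strength, at -0.32 in the weakest and -0.35 in the strongest bin as deposited. In set 2 it was 1.49 in the weakest bin and -0.21 in the strongest. The weakest quartile exceeded the strongest by 0.04 on the log2 scale in set 1 and by 1.13 in set 2, so this contrast rested on 1 library. Within the weakest quartile of set 2 the log2 ratio of shares was 1.27 in the intervals lowest in GC and 0.83 in those highest in GC, against 0.06 and 0.01 in set 1. The part of the library's depth or base composition in this was not tested.

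**Figure D1:**
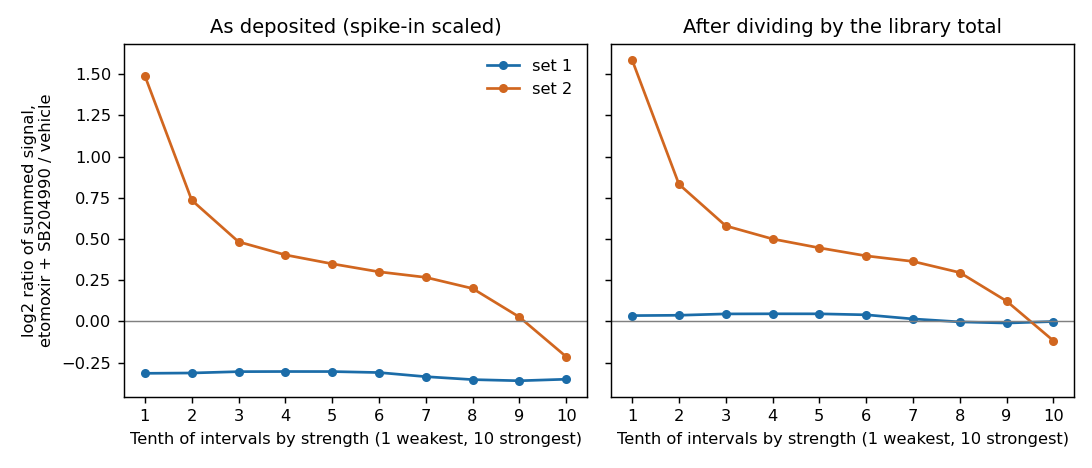
Log2 ratio of the summed signal, etomoxir + SB204990 over vehicle, in 10 equal bins of intervals ordered from weakest (1) to strongest (10), as deposited (left) and as a share of the library (right), with 1 line per set and no error bars because each point is a single pair of libraries. Set 1 is flat, and set 2 falls from 1.49 to -0.21 as deposited and from 1.59 to -0.12 as a share.

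As deposited, the typical interval was lower with both inhibitors in set 1 and higher in set 2, and as a share it was higher in both. The median log2 ratio over all intervals was -0.30 in set 1 and 0.19 in set 2 as deposited, and 0.02 and 0.28 as a share. Of all intervals, 26.1% were higher with both inhibitors in set 1 and 62.2% in set 2 as deposited, and the sign was the same in both sets for 48.2%. Over the 63903 intervals tested, both treated values lay above both vehicle values in 2.27% and below them in 18.8% as deposited, and in 15.6% and 9.05% as a share. The ordering of changes was more alike where the signal was strong: the Spearman correlation between the sets, as a description over intervals that share libraries and a genome, was 0.079 in the 63903 intervals tested and 0.398 in the 3663 with a mean of at least 500.

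Few intervals changed beyond the spread between libraries, and the balance of rises and falls depended on the filter and the model. In limma, over the 63903 intervals whose mean was 10 or more and with an adjusted p under 0.05 as the limit for a call, 20 intervals (0.0313%) were higher and 14 (0.0219%) lower as deposited. As a share of the library, 101 (0.158%) were higher and 64 (0.1%) lower, and these included all 34 of the deposited scale. All 165 had the same direction of share in both sets, which the choice of called intervals favours. With the set number as a replicate block, 31 were higher and 61 lower as deposited and 129 higher and 105 lower as a share. With the test limited to intervals whose mean was 50 or more, 33 were higher and 72 lower as deposited and 110 and 114 as a share. Without the treated library of set 2, the deposited scale gave 24 higher and 2502 lower, and the share gave 145 higher and 158 lower, and 146 of the 165 calls were kept. Without the treated library of set 1, the counts were 651 higher and 26 lower as deposited and 1789 higher and 1491 lower as a share. Without vehicle set 1 there were 2 higher and 0 lower as deposited and 39 higher and 2 lower as a share, and 40 of the 165 calls were kept. Without vehicle set 2 there were 15 higher and 1 lower as deposited and 74 higher and 21 lower as a share, and 82 were kept. In these fits the lone library of a group is assumed to vary like the other groups.

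**Figure D2:**
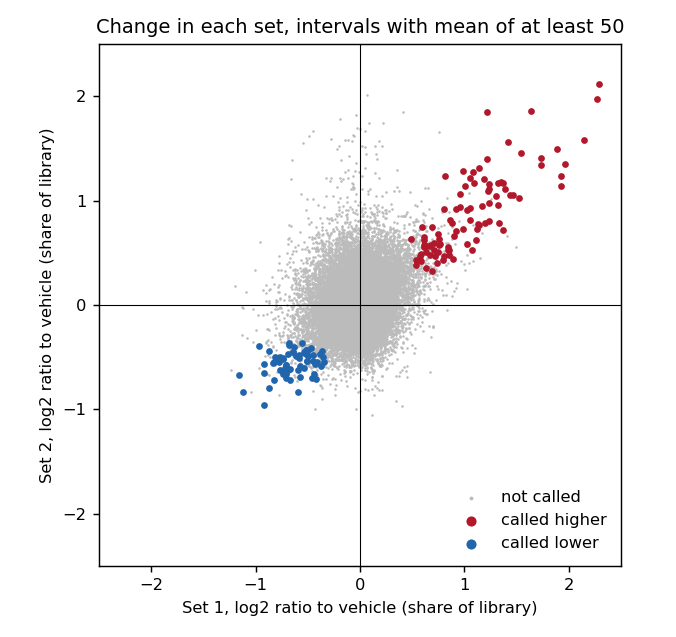
Log2 ratio of shares, etomoxir + SB204990 over vehicle, in set 1 (horizontal) and set 2 (vertical) for the 24109 intervals whose mean was 50 or more, each point 1 interval, of which 157 were called. Called higher intervals (red) lie in the upper right and called lower ones (blue) in the lower left.

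The interval with the strongest call reached from the start site of Pdk4 to 23281 bp upstream of it (chr6:5495394-5519590), and Pdk4 encodes a kinase that shuts off pyruvate dehydrogenase and so spares glucose when fat is burned. Its signal was 246.8 and 297.1 with vehicle and 934.8 and 1093 with both inhibitors. Both treated values lay far above both vehicle values. The log2 fold change was 1.90 ± 0.18 (SE, adjusted p = 5.82e-21) as deposited and 2.12 ± 0.09 (adjusted p = 2.88e-10) as a share.

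An interval between Acot2 and Acot1 (chr12:83996578-84001260) rose from 25.7 and 38.0 to 91.2 and 108, or by 1.63 ± 0.27 as deposited and 1.86 ± 0.17 as a share. Both genes encode thioesterases that release free fatty acids from acyl-CoA, and they are close copies of each other, so reads between them may be placed on either. The interval just upstream of Ucp3, a mitochondrial carrier of muscle and fat linked to fatty acid use (chr7:100458900-100469983, holding the start site of C2cd3), had 121.1 and 160.0 with vehicle and 316.2 and 398 with both inhibitors. Its change was 1.34 ± 0.20 as deposited and 1.57 ± 0.11 as a share. Hilpda, which encodes a lipid droplet protein that restrains triglyceride breakdown, had an interval centred 26290 bp upstream of its start site (chr6:29241093-29251303) at 167.3 and 173.5 with vehicle against 439.3 and 412 with both inhibitors. In each of these the treated values lay above the vehicle values, as the choice of called intervals favours.

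The higher interval with the most signal among those named was assigned by the authors' annotation to the non-coding gene 4931413I07Rik but holds the start site of Angptl4, a secreted inhibitor of lipoprotein lipase (chr17:33774033-33792193). It read 509.5 and 620.4 with vehicle and 1151.4 and 1184 with both inhibitors, a change of 1.05 ± 0.18 as deposited and 1.28 ± 0.11 as a share (adjusted p = 2.10e-05 and 6.33e-06). The intervals that the annotation does give to Angptl4 are weak neighbours, so the summed value of that gene (0.50 as a share, adjusted p = 0.69) leaves this interval out. Fbp2, the muscle form of fructose-bisphosphatase, had an interval over its start site (chr13:62856386-62860871) that went from 29.0 and 36.4 to 88.0 and 76, or by 1.31 ± 0.28 as deposited and 1.53 ± 0.18 as a share. The remaining intervals named by the rule were near Pate12, Ppef1, Lrrc6, 9330188P03Rik, Gm49390, Prtg and Mgat4c. Their changes lay between 1.03 and 1.52 as deposited, and both treated values exceeded both vehicle values in each.

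**Figure D3:**
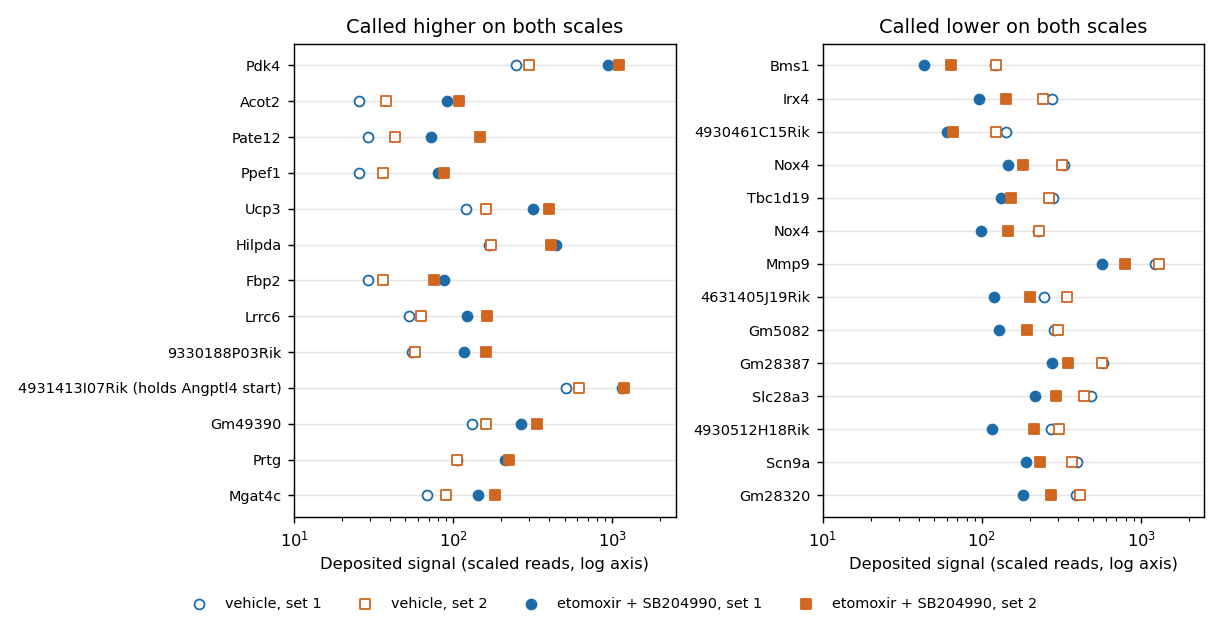
Deposited signal (scaled reads, log axis) of 13 intervals called higher and 14 called lower on both scales, labelled by the gene of the authors' annotation, with open symbols for vehicle, filled ones for etomoxir + SB204990, circles for set 1 and squares for set 2. In every row the 2 filled symbols lie to one side of the 2 open ones, for example 934.8 and 1093 against 246.8 and 297.1 at Pdk4.

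Further higher intervals were called on the share alone, and those given here were picked out after their values had been seen. Cpt1a encodes the enzyme that etomoxir inhibits. The interval over its start site (chr19:3320685-3347179) read 589.9 and 755.9 with vehicle and 1007 and 1172 with both inhibitors, with a change in share of 0.93 ± 0.09 (adjusted p = 3.62e-05). Cpt2, its partner on the inner mitochondrial membrane, had an interval at the start site (chr4:107917845-107923886) at 90.7 and 97.5 with vehicle and 135.4 and 149 with both inhibitors, a change in share of 0.81 ± 0.13. Both treated values lay above both vehicle values at each gene, which 2.27% of all tested intervals did as deposited.

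The intervals that hold the start sites of Ucp3, Acot2 and Hilpda rose in share by 1.01, 0.95 and 0.66, less than the intervals upstream of Ucp3 and Hilpda and between the Acot genes. Other rises in share were in intervals at Aldh1a1 (1.07), a retinaldehyde dehydrogenase, Nceh1 (0.97), a cholesterol ester hydrolase, Aldh9a1 (0.86), Eci2 (0.69), an isomerase of fatty acid oxidation, Agpat3 (0.57), an acyltransferase of phospholipid synthesis, and Aqp3 (0.48), a channel for water and glycerol. As deposited, 1 treated value lay below 1 vehicle value at Agpat3 and at Aqp3. Of 14 alternative fits, the call held in 13 at Aldh1a1 and Nceh1, 12 at Aldh9a1, 9 at Agpat3, 8 at Aqp3 and 6 at Eci2. A pair of intervals to either side of Areg, a ligand of the EGF receptor, rose by 1.03 and 0.63, and their calls held in 8 and 6 of 14.

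At Pdk4 the rise was not limited to the start site. All 15 tested intervals within 150 kb of it had a higher share with both inhibitors, 13 of them in both sets, and 5 were called. Over all tested intervals 50.5% were higher in share in set 1 and 64.3% in set 2, and 0.158% were called higher. The direction was the same in both sets, whether higher or lower, in 53.2% of them. The called ones included an interval centred 90325 bp upstream (chr6:5580934-5592335), which went from 137.0 and 199.7 to 268.8 and 364 and was called on both scales, and an interval within Asb4 on the other side (1.10 ± 0.14 as a share). Around Angptl4, 22 of 29 tested intervals were higher and 3 were called, among them a neighbour over the start site of Rab11b (0.65 ± 0.09). The direction was the same in both sets for 16 of the 29, a share near that of all tested intervals.

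**Figure D4:**
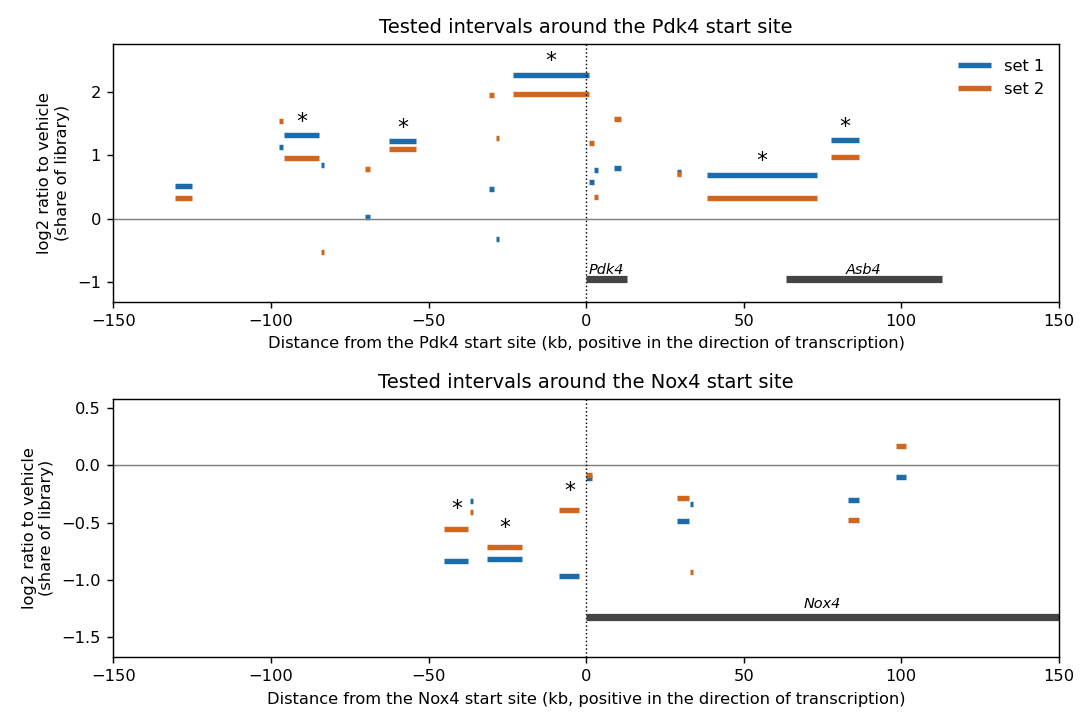
Log2 ratio of shares in set 1 (blue) and set 2 (orange) for each tested interval within 150 kb of the start sites of Pdk4 (top) and Nox4 (bottom), drawn at its distance from the start site in kb, with the gene bodies below and a star over each called interval. All 15 intervals at Pdk4 were higher in the fit and 8 of 9 at Nox4 were lower, and the interval over the Nox4 start site (-0.10) was not called. Both loci hold intervals named for their calls, which favours such counts. Of all tested intervals, 50.5% were higher in share in set 1 and 64.3% in set 2, and the sign in the fit was not counted over them.

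Because DR1 elements are the known landing sites of PPAR and RXR, the called intervals were searched on both strands for 2 copies of AGGNCA (N is any base) in the same orientation with 1 base between them. A selection of the matches in called intervals at genes named here, chosen after the values were seen, is printed to show what sequence the changed chromatin holds, in the orientation of the match, with the matching letters in capitals. They are reference sequence of mm10.
Angptl4 site A, chr17:33774396-33774424, minus strand: cacccaaaAGGTCAAAGGACAgaacagat
Angptl4 site B, chr17:33775767-33775795, plus strand: gggtatgaAGGTCAGAGGACAgcttgtgg
Ucp3 upstream site, chr7:100463281-100463309, plus strand: atcctaggAGGTCACAGGCCAaccaaaca
Hilpda upstream site, chr6:29250221-29250249, plus strand: accagtggAGGTCAGAGGACAactgtcag
Cpt1a site A, chr19:3330477-3330505, plus strand: ctgtggggAGGTCAGAGGACAgtttgtgg
Cpt1a site B, chr19:3335949-3335977, plus strand: ccattgtgAGGACACAGGGCAagacactg
Cpt1a site C, chr19:3341999-3342027, plus strand: gcatgtggAGGTCAGAGGTCAattgtctt
Cpt1a site D, chr19:3342264-3342292, plus strand: atgtatggAGGGCAGAGGACAgctctgga
Cpt2 site, chr4:107917857-107917885, minus strand: ggtagaggAGGCCAGAGGACAaattgcag
Aqp3 site, chr4:41098715-41098743, minus strand: gtgtgaccAGGTCACAGGACAtataccat
Agpat3 site A, chr10:78307582-78307610, plus strand: gctgaagcAGGTCACAGGGCAgcctgttg
Agpat3 site B, chr10:78308790-78308818, plus strand: gccaaagcAGGGCAAAGGTCAgcaacaag
Mmp9 site, chr2:164958557-164958585, plus strand: gcaggcagAGGCCAGAGGTCAtggcacct

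The Angptl4 site A lies in an untranslated part of the gene and site B in an intron, the 4 Cpt1a sites, the Cpt2 site and both Agpat3 sites lie in introns of those genes, the Ucp3 site lies in an intron of C2cd3, and the others lie between genes. The Angptl4 site B, the Hilpda site, the Cpt1a sites A, C and D, the Cpt2 site and the Mmp9 site are in sequence that the reference marks as repeats. The Mmp9 site belongs to an interval that fell. No match was found in the 3 called intervals assigned to Pdk4. The other 2 called intervals near that gene, both assigned to Asb4, held 1 match each, at chr6:5417041-5417069 in an intron of Asb4 and at chr6:5452304-5452332 between genes, with Pdk4 as the nearest coding gene at 43991 bp. No match was found in the 219 bp upstream of the Pdk4 start site taken from the RefSeq promoter (GRCm38.p6), where 0.338% of 32851 promoter windows of 250 bp hold 1.

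Of the 101 higher intervals 27 (26.7%) held at least 1 match and of the 64 lower ones 10 (15.6%), against 8.02% of all tested intervals. Length moves with these shares, since the called intervals were long, with medians of 7288 and 10119.5 bp against 1831 bp. Among intervals of 5000 to 20000 bp, 21 of 67 higher (31.3%), 5 of 51 lower (9.80%) and 2239 of 11853 tested intervals (18.9%) held a match. Per 100 kb there were 3.69 matches in higher, 1.61 in lower and 2.5 in tested intervals, and 50.0% of those in higher intervals were in repeats. The AP-1 letters TGANTCA, searched in the same way, stood at 41.1, 40.6 and 37.8 per 100 kb. These are descriptions of letters, and binding of any factor was not measured.

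Most called intervals held no start site. A start site of a protein-coding gene lay in 24 of the 101 higher intervals (23.8%) and in 7 of the 64 lower ones (10.9%), where 44.1% of the 24109 intervals whose mean was 50 or more held one, and 21.03% of all tested intervals did. By the authors' annotation 49 of the higher intervals (48.5%) were intergenic and 43 intronic, and of the lower ones 33 (51.6%) were intergenic and 26 intronic, against 24.6% intergenic among all tested intervals. The strongest quartile of all 126464 intervals (31616 of them) held 98 of the higher and all 64 of the lower calls, where 63903 intervals were tested. Within 100 kb, 32 of the 101 higher and 11 of the 64 lower intervals had another called in the same direction. The shares of all tested intervals that lie in that quartile or have such a neighbour were not counted. The median change in share was 0.97 (range 0.45 to 2.25) in the higher and -0.58 (range -0.98 to -0.40) in the lower intervals, beside 0.07 over all tested intervals. As deposited, the median over all tested intervals was -0.14.

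Upstream of Nox4, an NADPH oxidase that produces hydrogen peroxide, 3 intervals fell. The one centred 25864 bp upstream (chr7:87214747-87225717) went from 329.1 and 316.9 with vehicle to 145.8 and 180 with both inhibitors, a change of -0.99 ± 0.20 as deposited and -0.77 ± 0.11 as a share (adjusted p = 0.0052 and 0.0022). The one centred 41158 bp upstream (chr7:87201139-87208737) went from 226.2 and 228.2 to 99.2 and 145. The nearest, centred 5341 bp upstream (chr7:87237558-87243952), was called on the share alone, with 258.5 and 217.9 for vehicle and 103.6 and 155 for both inhibitors (-0.68 ± 0.14). Both treated values lay below both vehicle values in each, which 18.8% of all tested intervals did as deposited. The interval over the Nox4 start site itself was not called (-0.10, adjusted p = 0.97).

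The lower interval with the most signal spanned Mmp9, a gelatinase that cuts the basement membrane, and also held the start site of Slc12a5 (chr2:164921821-164961924). It read 1227 and 1304 with vehicle and 567.2 and 793 with both inhibitors, so both treated values were below both vehicle values. The change was -0.91 ± 0.18 as deposited and -0.69 ± 0.08 as a share (adjusted p = 0.0012 and 1.94e-04). Other lower intervals on both scales were near Bms1 (-1.20 as deposited), Irx4, a homeobox factor (-1.14), 4930461C15Rik (-1.05), Tbc1d19 (-0.93), Slc28a3, a nucleoside transporter (-0.88), and Scn9a, a sodium channel (-0.87). An interval in an intron of Palld, an actin-binding protein, was assigned to 4930512H18Rik and had a change of -0.88 as deposited, which was -0.45 and no longer called without the treated library of set 1. The remaining 4 were assigned to 4631405J19Rik, Gm5082, Gm28387 and Gm28320, and their changes lay between -0.90 and -0.85 as deposited. Leaving out the same library gave -0.52 for 4631405J19Rik and -0.56 for Gm28320, neither of them called.

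Lower intervals called on the share alone, again picked out after their values were known, included one centred 119267 bp downstream of the start site of Postn, a matrix protein of metastatic niches (chr3:54474772-54485981), with 522.6 and 542.7 for vehicle and 288.0 and 349 for both inhibitors. The change in share was -0.52 ± 0.10. Others were upstream of Bgn, a matrix proteoglycan (-0.58), at Il18rap, a subunit of the interleukin 18 receptor (-0.55 and -0.65), at Tmem176b (-0.49) and at Adamts8, a secreted metalloprotease (-0.47). Of 14 alternative fits, the call held in 9 at Bgn, in 8 and 6 at the Il18rap intervals, and in 8 at Tmem176b, Adamts8 and the Postn interval.

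Signal was also summed over all intervals that the authors' annotation gives to a gene, in 19458 tested genes. As deposited, limma called 1 gene higher (0.00514%), Pdk4, and 0 lower, with 825 genes at an unadjusted p under 0.05 and 14 called by DESeq2. The deposited scale gave 14 genes higher and 2387 (12.3%) lower once the treated library of set 2 was left out, and 1064 (5.47%) higher and 27 (0.139%) lower once the one of set 1 was. As a share of the library, 62 genes (0.319%) were higher and 33 (0.17%) lower. An unadjusted p under 0.05 was reached by 0.308% higher and 3.93% lower as deposited, and by 4.56% higher and 3.54% lower as a share. The summed signal of Pdk4 was 710.5 and 937.3 with vehicle and 1648 and 2191 with both inhibitors, a change of 1.22 ± 0.19 as deposited (adjusted p = 0.019) and 1.44 ± 0.08 as a share.

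The gene lists were written with earlier results of these data known, so their calls are not independent evidence. With all libraries, genes of fatty acid oxidation and known PPAR targets formed the list with most calls. Of 59 genes on it 46 were tested, and 7 were higher in share and 0 lower. Only Pdk4 was called as deposited, and with the spread estimated from the 4 compared libraries alone no gene of the list was called on either scale. Among the 7 were Acot1 (1.54 ± 0.24), Pdk4, Ucp3 (1.32 ± 0.10), Acot2 (1.17 ± 0.11), Cpt1a (0.84 ± 0.08) and Cpt2 (0.80 ± 0.12). Cpt1a summed to 809.6 and 1072 with vehicle and to 1244 and 1644 with both inhibitors. Both treated values lay above both vehicle values.

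The median change over the 46 genes was 0.26 as a share, where that of all genes was 0.04, and 0.04 as deposited, where that of all genes was -0.18. A change in share above 0 was seen in 41 genes, in 35 of them in both sets. The count of higher genes was 10 without the treated library of set 2, 14 without that of set 1, 5 without vehicle set 1 and 6 without vehicle set 2, and over all genes it was 0.427%, 10.7%, 0.0771% and 0.139% of those tested. On the deposited scale it was 5, with 2 lower, when treated set 2 was left out, where 0.0719% of all genes were higher and 12.3% lower, and 8 when treated set 1 was, where 5.47% were higher. Among those that did not pass were Slc25a42, a mitochondrial carrier of coenzyme A (0.36, adjusted p = 0.054), Klf11 (0.79, adjusted p = 0.078), Ucp2 (0.35), Acadl (0.31) and the lipid droplet coat gene Plin2 (0.38, adjusted p = 0.16). Cpt1b, the muscle form of the enzyme that etomoxir inhibits, was weak, at between 15.9 and 35 in the 4 libraries (0.44, adjusted p = 0.77). The oxidation enzymes Acadm (0.03) and Acsl1 (-0.12) had values near or below 0 and did not pass either. Of the receptor genes, Ppard summed to 3459 and 3969 with vehicle and 3041 and 3575 with both inhibitors, Pparg to between 47.7 and 85 and Ppara to between 5.58 and 16.6 in the 4 libraries. None of the receptor genes passed the test.

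**Figure D5:**
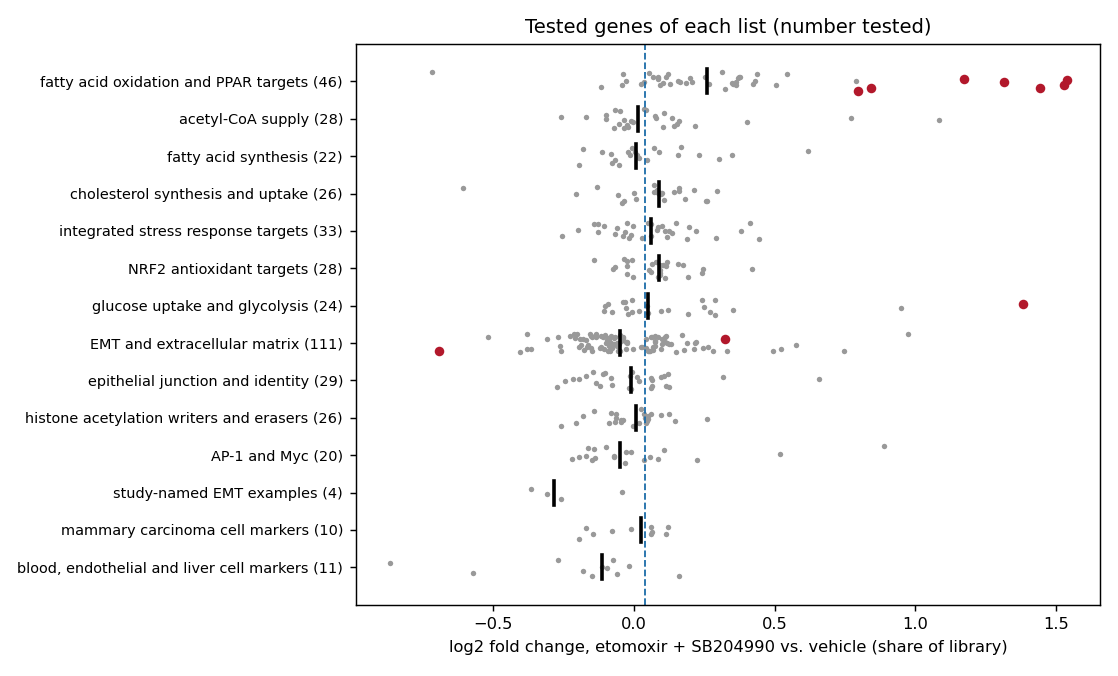
Log2 fold change in share, etomoxir + SB204990 against vehicle, of each tested gene (1 point each, summed over its intervals) in 14 lists with the number tested in brackets, red where called, with a black bar at the list median and a dashed line at the median of all genes (0.04). With all libraries, the list of fatty acid oxidation and PPAR targets has 7 called genes and a median of 0.26, and the other lists have 2 called genes at most. The lists were written with earlier results of these data known.

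Genes of epithelial to mesenchymal transition (EMT) and extracellular matrix gave few calls with all libraries, and the number depended on which were used. Of 139 genes on the list 111 were tested, with 1 lower in share (Mmp9, -0.69 ± 0.06) and 1 higher (Areg, 0.32 ± 0.06, which is called in 8 of 14 alternatives), and 0 called by limma as deposited, where DESeq2 called 1 lower, Mmp9. The unadjusted test passed 17 genes lower and 2 higher in share, and 17 lower and 0 higher as deposited. Without the treated library of set 2, 20 of the 111 were called lower and 0 higher as deposited, where 12.3% of all genes were lower, and 4 were lower and 1 higher in share, where 0.509% and 0.427% were. Without that of set 1 it was 1 lower and 3 higher as deposited, where 0.139% and 5.47% of all genes were, and 17 lower and 7 higher in share, where 4.46% and 10.7% were. With the replicate block 1 of the 111 was lower as deposited, where 0.0257% of all genes were. In share, 3 of the 111 were lower and 1 higher with the block, where 0.236% and 0.37% of all genes were. The median change in share was -0.05 beside 0.04 for all genes, and 42 genes were lower in both sets and 23 higher in both. Postn summed to 1204 and 1280 with vehicle and to 679.1 and 1001 with both inhibitors (-0.37 in share, adjusted p = 0.054). Among genes that did not pass were Bgn (-0.52, adjusted p = 0.054), Ccn2 (-0.38), Fn1, which encodes fibronectin (-0.23), and Col1a1 (-0.31, adjusted p = 0.20). Postn, Col1a1, Sparc (-0.26) and the integrin gene Itga5 (-0.04) are examples that the study itself chose on these samples, so their direction is not independent evidence, and limma called none of the 4 on either scale, with 3 lower at an unadjusted p under 0.05 on each and 1, Postn, called lower in share by DESeq2. With treated set 2 left out, 3 of them (Postn, Col1a1 and Sparc) were called lower as deposited, beside 12.3% of all genes, and Postn was called in share under 4 of 14 alternatives.

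The list of glucose uptake and glycolysis had 24 of 28 genes tested and 1 higher in share, Fbp2 (1.38 ± 0.17). Fbp2 encodes an enzyme of the opposite direction, the making of glucose. In the lists of acetyl-CoA supply, fatty acid synthesis, cholesterol synthesis and uptake, integrated stress response targets, NRF2 targets, epithelial identity, histone acetylation enzymes, and AP-1 and Myc, limma, edgeR and DESeq2 called 0 genes on either scale, with between 1 and 5 of 20 to 33 tested genes at an unadjusted p under 0.05 in share. With treated set 2 left out, limma on the deposited scale called 5 of 26 histone acetylation genes and 3 of 28 acetyl-CoA supply genes lower, and at most 2 in each of the other lists, beside 12.3% of all genes. With treated set 1 left out, it called 2 of 28 acetyl-CoA supply genes and 1 of 33 stress response genes higher as deposited, beside 5.47% of all genes, and at most 4 higher and 6 lower in any of these lists in share, beside 10.7% and 4.46%. Their median changes in share, with all libraries, lay between -0.05 and 0.09. Acly, which encodes the enzyme that SB204990 inhibits, summed to 436.6 and 540.3 with vehicle and 360.0 and 555 with both inhibitors, and these ranges overlap. Its change was 0.10 ± 0.08 in share and -0.12 as deposited, so its sign depends on the scale. Acss2, which makes acetyl-CoA from acetate, stood at 0.77 in share (adjusted p = 0.30) and Idh1, the cytosolic isocitrate dehydrogenase, at 0.40 (adjusted p = 0.28). Under the alternatives run, Acss2 ranged from 0.44 to 1.11 and Idh1 from 0.32 to 0.48.

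The members of these lists with the smallest p were all short of a call. In fatty acid synthesis they were the desaturase gene Scd1 (0.35 in share, adjusted p = 0.20) and the elongase gene Elovl6 (0.62, adjusted p = 0.30). In the cholesterol list they were Abcg1, a sterol exporter, and Mylip, which marks the LDL receptor for breakdown. Abcg1 summed to 172.5 and 234.5 with vehicle and to 84.0 and 152 with both inhibitors, and its change in share was -0.60 ± 0.14 (adjusted p = 0.15). Mylip stood at -0.20. Of the stress lists, Psph, of serine synthesis, stood at 0.44, the stress regulator Nupr1 at -0.25, and the NRF2 targets Nqo1 and Gclc at 0.24 and 0.17. Under the alternatives run, Psph ranged from 0.23 to 0.66 and Nupr1 from -0.42 to -0.085. Cdh1, which encodes E-cadherin, summed to 2149 and 2336 with vehicle and to 1556 and 1873 with both inhibitors, and its change in share was -0.17 (adjusted p = 0.48), beside 0.32 for the epithelial factor Ehf. The deacylase gene Sirt5 (-0.26), the acetyltransferase gene Kat6b (-0.20) and the AP-1 family genes Maff (-0.16) and Batf (0.89, at between 6.54 and 25 in the 4 libraries) did not pass either.

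The labelled cell type was checked against markers. Of 12 markers of mammary carcinoma cells 10 had an interval, all with a mean of at least 100, and their summed signal was 11518 and 12430 with vehicle and 8989 and 10646 with both inhibitors. Of 16 markers of blood, endothelial and liver cells 11 had one, 7 with a mean of at least 100, and these summed to 4465 and 4980 with vehicle and 3248 and 4275 with both inhibitors. By the authors' annotation, the mammary carcinoma markers with none were the keratin genes Krt7 and Krt18. Of the blood, endothelial and liver markers, Adgre1, Alb, Hbb-b1 and Ttr were among those with none. Both sums fell on the deposited scale, as did the library totals, and limma with all libraries called no marker on either scale. In share, the median change of the 11 blood, endothelial and liver markers was -0.11 beside 0.04 for all genes, and 8 of the 11 were lower in both sets. When treated set 2 was left out, 5 of the 11 were called lower as deposited, beside 12.3% of all genes. When treated set 1 was, 2 of the 11 and 3 of the 10 mammary markers were called lower in share, beside 4.46% of all genes. The part of other cell types in the results was not tested. The lowest p in share belonged to Pecam1 (-0.27, adjusted p = 0.19) and Kdr (-0.57, adjusted p = 0.61), both genes of endothelium, and among the mammary markers to Cldn4, a claudin (-0.19, adjusted p = 0.74).

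The same inhibitors were also given on top of acetate, in 4 libraries that the comparison with vehicle does not use, although the spread was estimated over all 12. Of the 101 higher intervals all 101 were also higher with both inhibitors and acetate than with acetate alone, and 64 were called there, which is 63.4% of the 101 and 97.0% of the 66 called higher with acetate (0.103% of those tested). Of the 64 lower ones all 64 were lower, and 13 were called in both, which is 20.3% of the 64 and 54.2% of the 24 called lower with acetate (0.0376%). The median changes in share were 0.80 and -0.44 with acetate, beside 0.97 and -0.58 without it and 0.01 for all tested intervals with acetate. As deposited, 18 of the 20 higher intervals were called with acetate too, which is 90.0% of the 20 and 66.7% of the 27 called there (0.0423%), and of the 14 lower ones 0 were, where 1 interval was called lower with acetate (0.00156%). At Pdk4 the deposited signal was 399.6 and 392.8 with acetate and 1304 and 1680 with both inhibitors and acetate. At Mmp9 it was 1805 and 1666 with acetate and 997.3 and 1342 with both inhibitors and acetate. A test of the difference between the inhibitor changes with and without acetate passed in 0 of 63903 intervals in share, where 172 were higher and 666 lower without adjustment, and in 1 (0.00156%) as deposited.

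Etomoxir was part of both treatments, so its own libraries are set beside these values as levels. At the Pdk4 interval etomoxir alone gave 1123 and 1201, near the 934.8 and 1093 of both inhibitors. At the Mmp9 interval it gave 1124 and 1061, between vehicle (1227 and 1304) and both inhibitors (567.2 and 793), and at the Nox4 interval centred 25864 bp upstream it gave 238.9 and 250.8, where vehicle gave 329.1 and 316.9 and both inhibitors 145.8 and 180. Both inhibitors against etomoxir alone gave 0 called intervals in share, where 1526 passed higher and 703 passed lower without adjustment, and 16 higher (0.025%) and 14 lower (0.0219%) as deposited, where 448 passed higher and 8582 passed lower without adjustment.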

How the data were processed

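The authors processed the reads with nf-core/chipseq on a merged human and mouse genome (GRCh38 and mm10, per the labels, with deepTools) and deposited signal values, which are read counts per interval multiplied by a factor derived from human spike-in reads. How intervals were called and replicates entered is not given in the sources used here. A factor error moves a whole library together. All values (100% within 0.01) were whole multiples of 1 read, so reads were recovered. Signal was tested on log2(value + 1) with limma 3.58.1 (R 4.3.3, intensity trend, all 12 libraries, Benjamini-Hochberg, adjusted p under 0.05) in 63903 intervals with a mean of at least 10, leaving 62561 untested, and fold changes understate low intervals. edgeR 4.0.16 and DESeq2 1.42.0 on recovered reads, other filters, scalings and left-out libraries were alternatives. The scripts were checked on simulated data. Interval names follow the authors' annotation, and coding start sites come from GENCODE M21. Named intervals were those called in the same direction on both scales and in both sets with a mean of at least 50, largest changes first; 2 such intervals and some list members are not reported here. Members and lists were chosen with earlier results of these data known.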

Additional observations from a re-analysis of the deposited data

Results flagged for a closer look

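The interval assigned to Gm28986 (chrY:29071024-29071283) was the one interval where the effect of both inhibitors differed between cells with and without acetate on the deposited scale, with a log2 difference of -4.13 (limma, Benjamini-Hochberg adjusted p = 0.017 over 63903 intervals). It held 9.35 and 12.7 with vehicle, 5.97 and 31 with both inhibitors and 11.5 and 14.6 with acetate, and it is listed at 0 in both libraries with both inhibitors and acetate. The value of 31 belongs to the treated library of set 2, which differed in shape from the others. The interval is 260 bp long and lies on chromosome Y, and whether its reads were placed correctly was not tested. The size depends on the value of 1 added before taking logs and is no bound. As a share of the library the difference was -4.21 with an adjusted p of 0.854.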

How the results depend on the processing

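The libraries limit what can be said of the typical interval. Leaving out 1 library at a time moved the log2 ratio of totals between -0.44 and -0.01, the median interval between -0.51 and 0.37 as deposited and between -0.12 and 0.40 as a share, and the contrast of weak with strong intervals between -0.25 (without treated set 2) and 1.42 (without treated set 1). Multiplying shares by the factor reversed the total to 0.052. The 34 calls as deposited became 2 to 2526 on leaving out libraries (2 without vehicle set 1), 52 with median-of-ratios scaling (47 higher, 5 lower), 105 at a mean of 50 or more (33 higher, 72 lower), 22 with no filter, 8 with only the 4 libraries, 3 with array weights, and by limma 0 with no intensity trend (1431 unadjusted) and 0 with shares times the factor (81 unadjusted), where edgeR gave 51 and DESeq2 38. The 165 calls as a share became 41 to 3280, 72 with TMM (59 higher, 13 lower), 57 with array weights, 37 with only the 4 libraries and 8 with no trend. The 1 gene as deposited became 0 to 2401 on leaving out libraries, 14 with DESeq2, 7 with median-of-ratios scaling, 3 at a mean of 50 or more, and by limma 0 with no trend, array weights, only the 4 libraries or shares times the factor (555, 168, 208 and 37 unadjusted), where edgeR gave 1. The 95 genes as a share became 16 to 2952, 18 with no trend, 11 with array weights and 0 with only the 4 libraries (389 unadjusted, 84 by edgeR). The deposited change of Acly turned to 0.0081 with median-of-ratios scaling and 0.16 with shares times the factor, and ranged from -0.43 to 0.19 on leaving out libraries. That of Itga5 turned to 0.0090 with shares times the factor, and its share ranged from -0.16 to 0.072. By direction, the interval calls as a share were 53 higher and 4 lower with array weights. They were 36 higher and 1 lower with only the 4 libraries, and 8 higher and 0 lower with no trend. Few or none of the lower calls were thus left under these 3 settings, where the main fit gave 101 higher and 64 lower. At a mean of 50 or more they were 110 higher and 114 lower. The cause of these moves was not tested.

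With the set number as a replicate block, 92 intervals (31 higher, 61 lower) and 18 genes were called as deposited, and 234 intervals and 118 genes as a share. Within set 1, deviations from group means correlated between treatments at 0.327 for vehicle with both inhibitors, and at 0.299 and 0.354 for acetate with each of these. The correlation lay between -0.149 and 0.045 for the other 12 of 15 pairs of treatments, so the set numbers are not shown to pair all libraries. None of the named intervals reversed under the alternatives run. Of 420 alternative values of the 28 intervals as deposited 182 lost the call, and of 798 of the 57 intervals as a share 199 did. Of the 28, the call as deposited held in 28 without treated set 2, 19 without treated set 1, 11 without vehicle set 2 and 2 without vehicle set 1. A lone library left in a group is assumed to vary like the others.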
